A study of Mus musculus with 8 samples.

Results

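Prostaglandins are lipid signals made from arachidonic acid, and the genes that make them, inactivate them or receive them were followed in mouse osteoblasts after doxorubicin. The set was chosen by gene symbol and holds Ptgs1, Ptgs2, Ptges, Ptges2, Ptges3, Ptgis, Ptgds, Hpgds, Hpgd and Ptger4. Of these 10 genes, 9 had a row among the 21154 genes of the count table, and all 9 were among the 15373 genes tested. Ptgds had no row there and was not analysed here. The set was proposed with the doxorubicin contrast already known, so the differences between doxorubicin and control in these genes are given as descriptions, with no test.

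The libraries were RNA-seq of sorted osteoblasts from female Col2.3-GFP mice, in which a fragment of the Col1a1 promoter drives green fluorescent protein in bone-forming cells. Treatment began at 8 to 10 weeks of age and consisted of 4 intravenous injections at intervals of 1 week, and bone was taken 8 weeks after treatment. The 5 DOX libraries came from mice given doxorubicin at 5 mg/kg per injection, and the 3 PBS libraries came from mice given phosphate-buffered saline. Both groups carried the same reporter, and sorting followed removal of the marrow and enzymatic digestion of bone chips, so osteocytes or other cells with reporter signal could be present. The labels place PBS replicate 1 and DOX replicates 1 and 2 in batch 1 and the other 5 libraries in batch 2, without saying what the batches were. DOX replicate 1 is DOX by its title but PBS by its treatment tag. It was placed by its title, and results that rest on it are also given without it. No label says whether the libraries of a group came from separate mice, so any p-value measures only the spread between these libraries.

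The libraries held 39419027 to 44299591 counts. PBS replicate 1 and DOX replicate 1 had the lowest share of counts on the 2 type I collagen genes, at 19.1% and 23.2%. The other 6 libraries held 26.0% to 39.5%, with DOX replicate 4 the lowest of these. All 14 osteoblast markers and all 9 osteocyte markers had rows. The osteoblast markers summed to 236083 to 612335 CPM in PBS and 264694 to 487336 in DOX, where CPM are counts per 1000000 of the library size after trimmed-mean (TMM) scaling.

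Prostaglandin synthesis starts when a cyclooxygenase, encoded by Ptgs1 or Ptgs2, turns arachidonic acid into the unstable intermediate prostaglandin H2. Separate synthases then make prostaglandin E2, prostacyclin or prostaglandin D2 from it, and the dehydrogenase encoded by Hpgd inactivates prostaglandin E2 and related molecules inside cells. In bone, prostaglandin E2 acts on osteoblast-lineage cells in good part through the receptor encoded by Ptger4, and Ptgs2 is known as the inducible cyclooxygenase of these cells.

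Promoters are shown for 4 of the genes whose levels the results turn on, which are the cyclooxygenase pair, the prostaglandin D2 synthase Hpgds and the dehydrogenase Hpgd. They are the 250 bases before the gene start in RefSeq, build GRCm38.p6, written 5′ to 3′ on the gene's strand, and capitals mark matches to the motifs searched. They lie at chr2:36230176-36230425 (plus strand) for Ptgs1, chr1:150099781-150100030 (plus) for Ptgs2, chr6:65144731-65144980 (minus) for Hpgds and chr8:56294302-56294551 (plus) for Hpgd. The counts themselves were made on GRCm39, so these coordinates belong to the sequences alone.
Ptgs1: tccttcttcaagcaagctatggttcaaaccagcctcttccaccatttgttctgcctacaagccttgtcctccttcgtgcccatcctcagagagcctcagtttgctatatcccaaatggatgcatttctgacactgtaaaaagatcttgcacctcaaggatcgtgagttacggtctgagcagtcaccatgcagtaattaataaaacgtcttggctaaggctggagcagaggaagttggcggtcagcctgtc
Ptgs2: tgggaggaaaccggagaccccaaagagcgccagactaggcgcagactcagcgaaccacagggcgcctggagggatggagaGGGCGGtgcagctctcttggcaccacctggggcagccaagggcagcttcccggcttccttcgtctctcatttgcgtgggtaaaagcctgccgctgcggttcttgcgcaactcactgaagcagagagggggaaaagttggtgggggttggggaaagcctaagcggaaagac
Hpgds: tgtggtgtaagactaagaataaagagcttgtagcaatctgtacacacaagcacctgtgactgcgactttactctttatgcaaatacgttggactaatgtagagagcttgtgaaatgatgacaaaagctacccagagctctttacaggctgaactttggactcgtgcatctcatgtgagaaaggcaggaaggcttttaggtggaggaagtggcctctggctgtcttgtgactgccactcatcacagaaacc
Hpgd: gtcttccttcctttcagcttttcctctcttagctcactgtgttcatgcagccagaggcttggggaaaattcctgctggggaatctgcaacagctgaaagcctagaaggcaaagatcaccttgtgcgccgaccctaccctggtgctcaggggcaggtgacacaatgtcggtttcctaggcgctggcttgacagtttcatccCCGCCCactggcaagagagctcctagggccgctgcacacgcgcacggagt

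The motifs searched on both strands, from 250 bases before to 50 bases after the start, were the TATA box TATAAA, the cAMP response element core CGTCA, the E-box CACGTG, the CCAAT box and the GC box GGGCGG. Among 32851 RefSeq mouse promoters of the same length, they were found in 13.6%, 20.8%, 7.15%, 37.4% and 35.7%. Ptgs1 and Hpgds held none of the 5 in this window. Hpgd held a TATA box match at position 5 and a GC box on the minus strand at position -50, counted from the gene start. Ptgs2 held a GC box at position -170, and a cAMP response element core overlapping an E-box at positions 14 and 17. That overlapping pair is shown within a stretch of 21 bases at chr1:150100038-150100058 on the plus strand of GRCm38.p6. It is shown because cAMP-response elements and E-boxes near the start are known control sites of Ptgs2.
Ptgs2 site: ccactaCGTCACGTGgagtcc
Such an overlap of the motif pair was found in 148 of the 32851 promoters (0.451%). A match describes the letters of the reference and not binding. Of the 10 genes, 9 had a promoter in the RefSeq table, and Ptgis had no entry.

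Of the cyclooxygenases, Ptgs2 had low counts and its mean was higher in DOX. Ptgs2, the inducible enzyme, had 47, 19 and 13 counts in PBS replicates 1 to 3, and 46, 103, 41, 59 and 106 in DOX replicates 1 to 5. In TMM-scaled CPM these were 0.883, 0.518 and 0.368 in PBS and 0.930, 2.56, 1.01, 1.36 and 2.56 in DOX. On this scale the lowest DOX value exceeded the highest PBS value, but PBS replicate 1 and DOX replicate 1 nearly met. The means were 0.590 ± 0.265 CPM (SD, n = 3) and 1.68 ± 0.814 (SD, n = 5), and the fitted log2 difference with batch in the model was 1.53 ± 0.55 (SE). Divided by raw library totals instead, PBS replicate 1 held 1.15 CPM and DOX replicate 3 held 0.929, so the groups overlapped. Within batch 1 the difference of mean log2 CPM was 0.78 and within batch 2 it was 1.70. The fitted difference was 1.89 without PBS replicate 1 and 1.77 without DOX replicate 1.

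Ptgs1, the constitutive cyclooxygenase, overlapped between the groups. It held 10.5, 26.1 and 26.8 CPM in PBS and 14.4, 15.6, 14.8, 15.9 and 22.6 CPM in DOX. PBS replicate 1 was the lowest of all 8 libraries and the other PBS libraries were the highest, so the DOX values lay inside the PBS range. The group means were 21.1 ± 9.23 (SD, n = 3) and 16.7 ± 3.37 CPM (SD, n = 5), with a fitted log2 difference of -0.22 ± 0.23 (SE). The direction was opposite in the batches: the difference of mean log2 CPM was 0.51 in batch 1, with a single PBS library, and -0.60 in batch 2. Leaving out a library gave fitted values from -0.56, without PBS replicate 1, to -0.09, without DOX replicate 3. In DOX replicate 1, 46 Ptgs2 counts stood beside 714 Ptgs1 counts, and in every library Ptgs1 had the higher level per length. The ratio of Ptgs1 to Ptgs2 in TPM (transcripts per 1000000, scaled by exon length) was 14.0, 59.4 and 85.9 in PBS and 18.3, 7.18, 17.3, 13.8 and 10.4 in DOX. PBS replicate 1 lay among the DOX libraries, and the other PBS libraries had the widest ratios.

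**Figure D1:**
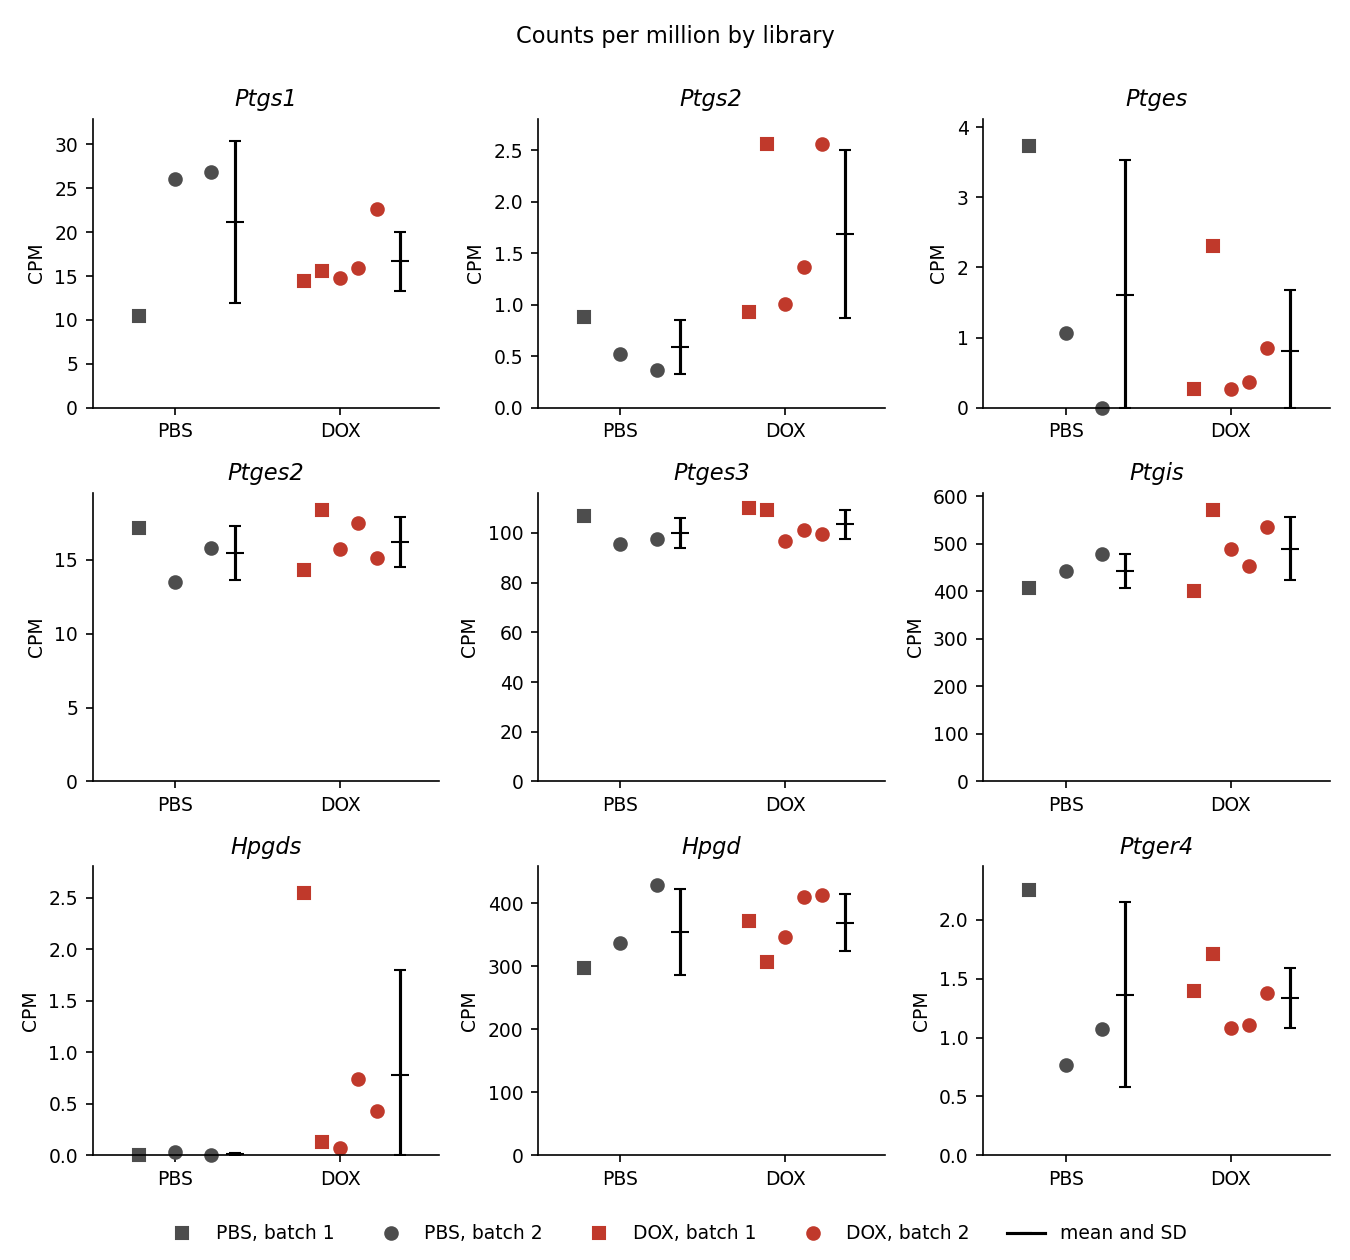
TMM-scaled CPM of the 9 genes in each library, in panels with their own vertical axes that start at 0; points are libraries, marked by batch, and lines are group means with SD bars (3 PBS and 5 DOX libraries; lower bars are cut at 0). Ptgs2 in DOX lies from 0.930 to 2.56 CPM, just above the highest PBS value of 0.883, and most Hpgds counts are in DOX replicate 1 at 2.55 CPM.

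Prostaglandin E2 can be made by the enzymes of Ptges, Ptges2 and Ptges3, and these showed no common direction. Ptges, the inducible microsomal synthase that couples to Ptgs2, was rare and uneven, with 199, 39 and 0 counts in PBS and 13, 93, 11, 16 and 35 in DOX. In CPM these were 3.74, 1.06 and 0 in PBS and 0.263, 2.31, 0.271, 0.370 and 0.845 in DOX. PBS replicate 1 and DOX replicate 2 held the most, and the DOX values lay within the PBS range. The fitted log2 difference was -0.69 ± 1.02 (SE), and it was -0.10 without PBS replicate 1 and 0.11 without PBS replicate 2. The difference of mean log2 CPM was -2.15 in batch 1 and 1.10 in batch 2. The same pair of libraries had the highest summed levels of the 12 endothelial markers: PBS replicate 1 had 33.8 CPM and DOX replicate 2 had 36.5, against 7.04 to 11.0 in the other 6. Cdh5 and Cldn5, which define endothelial cells, held 105 and 63 counts in the first of these, 77 and 44 in the other, and 0 to 6 in each of the others. Plvap made 47.6% of the endothelial sum, with 570 and 521 counts in the pair and 185 to 311 in the others. Vwf and Emcn did not follow the pair. Vwf was highest in DOX replicates 4 and 3, at 41 and 37 counts, against 24 and 29 in the pair. Emcn had 118 counts in PBS replicate 1, 84 in DOX replicate 1 and 42 in DOX replicate 2. The remaining endothelial markers were highest in the pair. The pair was also highest in the summed macrophage and monocyte (119 and 101 CPM, against 56.0 to 69.6 in the others), adipocyte (45.4 and 40.0, against 3.20 to 27.7) and pericyte and smooth muscle markers (284 and 189, against 114 to 175). Adipoq made 48.7% of the adipocyte sum, and Plin1 had 0 counts in both libraries of the pair, while Fabp4 had 253 and 611. Adipoq is also a reticular stroma marker. Those 8 markers summed to 962 CPM in PBS replicate 1, 577 in DOX replicate 2 and 166 to 607 in the others. The part of any of these cells in the Ptges values was not tested. In bulk RNA, fewer cells of a type and less RNA per cell cannot be told apart.

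In TMM-scaled CPM, Ptges2 and Ptges3 varied little between libraries. Divided by raw library totals they varied more, from 11.2 to 22.3 CPM for Ptges2 and from 78.5 to 139 for Ptges3. On the TMM scale Ptges2, a membrane-associated synthase, held 17.2, 13.5 and 15.8 CPM in PBS and 14.3, 18.4, 15.7, 17.5 and 15.1 CPM in DOX. The groups overlapped throughout, and the fitted log2 difference was 0.06 ± 0.14 (SE), with differences of mean log2 CPM of -0.08 in batch 1 and 0.14 in batch 2. Ptges3, which encodes the HSP90 co-chaperone p23 and a cytosolic synthase activity, lay between 95.8 and 107 CPM in PBS and between 97.0 and 110.0 CPM in DOX. Its fitted log2 difference was 0.04 ± 0.10 (SE), and the difference of mean log2 CPM was 0.04 within each batch. Ptges3 shares sequence with a pseudogene and a related gene that were counted as rows of their own. Ptges3-ps took 5.06% to 7.004% and Ptges3l 6.31% to 10.3% of the counts on the 3 rows. Reads of these copies could have been split between rows or dropped, so the Ptges3 level is uncertain.

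Ptgis, the prostacyclin synthase, was among the most abundant genes of the set. It held 408, 443 and 478 CPM in PBS and 402, 571, 489.8, 454 and 535 CPM in DOX. On this TMM scale DOX replicate 1 was the lowest library and 3 of the 5 DOX libraries were above every PBS library. Divided by raw library totals, PBS replicate 2 was the lowest, at 367 CPM, and 2 of the 5 were above every PBS library. The means were 443 ± 34.9 (SD, n = 3) and 490.3 ± 66.5 CPM (SD, n = 5), and the fitted log2 difference was 0.15 ± 0.14 (SE), with differences of mean log2 CPM of 0.23 in batch 1 and 0.10 in batch 2.

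Hpgds, the hematopoietic prostaglandin D2 synthase, was almost without counts in PBS and was carried in DOX mainly by 1 library. PBS replicates 1 to 3 had 0, 1 and 0 counts, and DOX replicates 1 to 5 had 126, 5, 3, 32 and 18. Every DOX library was above every PBS library in counts and in CPM, yet the DOX range ran from 0.0739 CPM in replicate 3 to 2.55 CPM in replicate 1. By the 95% exact Poisson interval, a count of 0 allows up to 3.69 counts. That is 0.0693 CPM in PBS replicate 1 and 0.104 in PBS replicate 3. The 1 count of PBS replicate 2 allows up to 5.57 counts (95% exact Poisson interval), or 0.152 CPM. DOX replicate 2, at 0.124 CPM, was below the bound of PBS replicate 2 and above those of PBS replicates 1 and 3. The intervals of DOX replicate 2 (0.0403 to 0.290 CPM) and DOX replicate 3 (0.0152 to 0.216) overlapped the interval of each PBS library. Whether either library differs from PBS was not tested. DOX replicate 1, the library whose title and tag disagree, held 68.5% of the DOX counts of Hpgds.

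Summed, Hpgds had 184 counts in DOX (95% exact Poisson interval 158 to 213) and 1 in PBS (0.0253 to 5.57). Per unit of library size the ratio was 107, with a counting interval of 19.0 to 4253. Without DOX replicate 1 the DOX sum was 58 and the ratio 43.8 (7.56 to 1761), and with that library counted as PBS, as its tag reads, the sums were 58 and 127 and the ratio was 0.482 (0.347 to 0.662). These intervals treat each read as an independent count and leave out the spread between libraries. The PCR-amplified reads carry no molecular identifiers, so the intervals may be too narrow even for counting error. The fitted log2 difference of 5.92 ± 1.66 (SE) depends on how the fit treats counts of 0 and is no measure of size. Hpgds passed the filter on low counts through its DOX libraries alone. Across all genes tested, DOX lay wholly above PBS in 190 of 15373 (1.24%) and wholly below in 183 (1.19%). In the set, 2 genes lay wholly above in TMM-scaled CPM, Ptgs2 and Hpgds, and 0 wholly below. Since the set was chosen with this contrast known, nothing is read from that count.

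Hpgds is known from mast cells, megakaryocytes, macrophages and T helper 2 cells, and markers of such cells were looked at beside it. Of the 12 mast cell and basophil markers, 8 had rows, and their summed level was 4.45 to 16.9 CPM in PBS and 5.21 to 15.5 in DOX, with Kit the largest part. In DOX replicate 1, which had the most Hpgds, Cpa3, Ms4a2, Fcer1a and Mcpt8 were at 0 counts, and Prss34 had 24. In DOX replicate 4, with 32 Hpgds counts, Cpa3 had 96 and Prss34 171 counts, while PBS replicate 3, with no Hpgds count, had 9 and 86. Of the 14 macrophage and monocyte markers, 12 had rows, and they summed to 56.0 to 119 CPM in PBS and 58.8 to 101 in DOX. Cd68 was highest in DOX replicate 1, with 114 counts against 18 to 64 in the others. C1qa had 11 counts in PBS replicate 1 and 0 in the other libraries, and Adgre1 had 46 in DOX replicate 1, 28 in DOX replicate 4, 32 in PBS replicate 3, 4 in PBS replicate 1 and 0 elsewhere.

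The 12 megakaryocyte and platelet markers summed to 662 to 3310 CPM in PBS and 721 to 2380 in DOX, but Thbs1 alone made 99.5% of that sum. The platelet gene Ppbp had 983, 7 and 12 counts in PBS and 406, 61, 160, 123 and 271 in DOX. It was highest in PBS replicate 1, which had no Hpgds count. Ptgdr2, the prostaglandin D2 receptor of T helper 2 cells, eosinophils and basophils, had 5, 0 and 0 counts in PBS and 22, 0, 0, 5 and 1 in DOX. Its highest value was in the library with the most Hpgds, at too few counts for it to be tested. Of the 8 T and NK cell markers, 6 had rows, and they summed to 0.657 to 2.18 CPM in PBS and 0.121 to 4.97 in DOX. They were lowest in DOX replicate 1, where Cd3g, Trac and Il7r were at 0 counts. The part of any of these cell types in the Hpgds counts was not tested.

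Hpgd, which breaks prostaglandin E2 down, was abundant and similar in both groups. It held 298, 336.5 and 429.8 CPM in PBS and 372, 306, 346, 410.1 and 413 CPM in DOX. The DOX values all lay within the PBS range on this TMM scale. Divided by raw library totals, Hpgd held 387, 279 and 346 CPM in PBS and 467, 286, 318, 429 and 421 in DOX. On that scale 3 of the DOX libraries were above every PBS library. The fitted log2 difference was 0.08 ± 0.14 (SE), with a difference of mean log2 CPM of 0.18 in batch 1 and 0.03 in batch 2.

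Ptger4, the EP4 receptor for prostaglandin E2, had low counts in every library, at 120, 28 and 38 in PBS and 69, 69, 44, 48 and 57 in DOX. In CPM these were 2.25, 0.764 and 1.08 in PBS and 1.39, 1.71, 1.08, 1.11 and 1.38 in DOX. PBS replicate 1 was the highest library, and the other PBS libraries were at the low end of the range. The fitted log2 difference was 0.02 ± 0.39 (SE). The within-batch differences of mean log2 CPM had opposite signs, at -0.53 in batch 1 and 0.37 in batch 2, and without PBS replicate 1 the fitted value was 0.38.

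**Figure D2:**
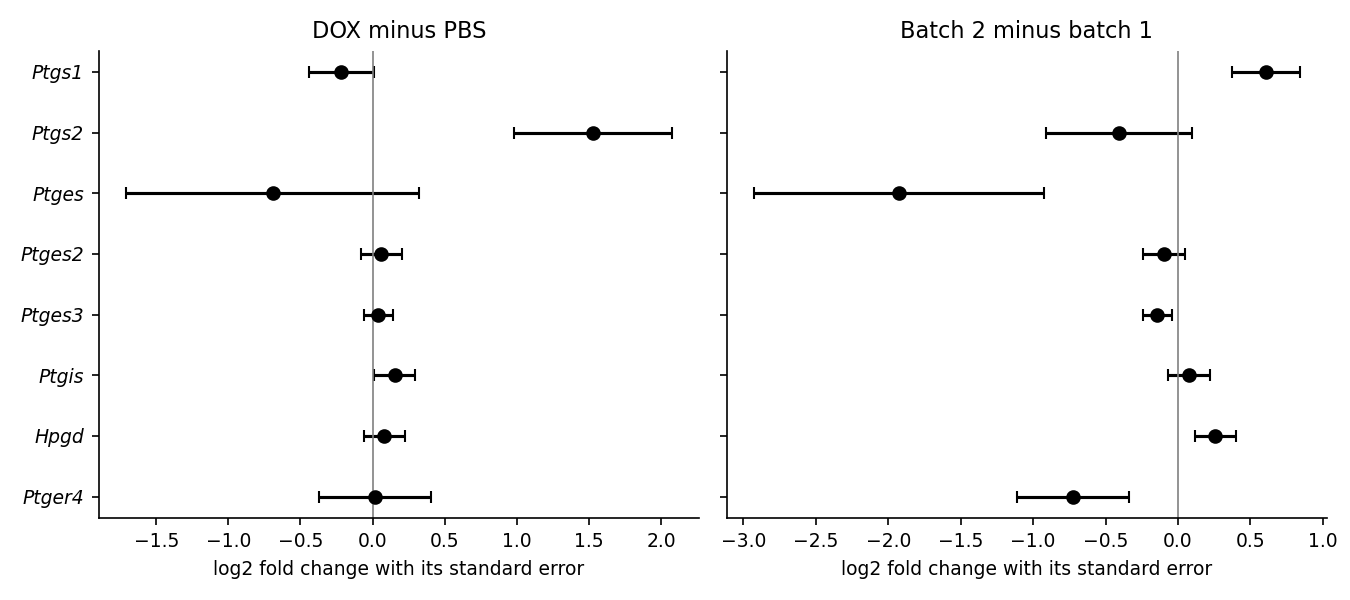
Fitted log2 difference of DOX and PBS, and of batch 2 and batch 1, for 8 of the genes, with bars of 1 SE; Hpgds is left out because its fitted value depends on how counts of 0 are treated. Ptgs2 is the farthest above 0 for DOX at 1.53, and the batch values run from -1.92 for Ptges to 0.61 for Ptgs1.

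**Figure D3:**
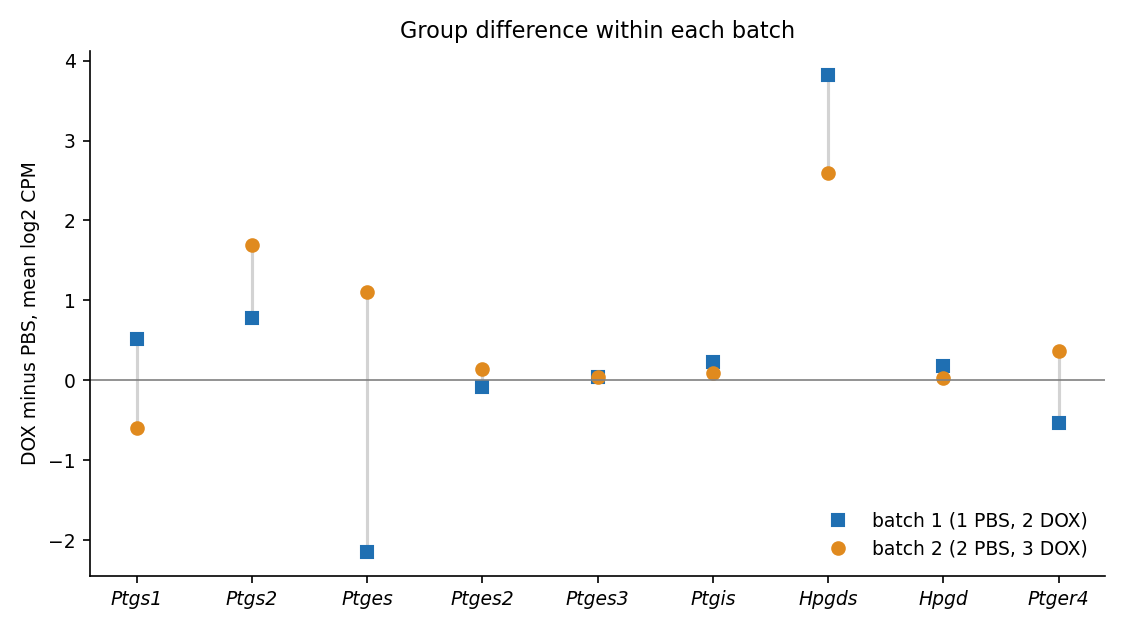
Difference of mean log2 CPM (TMM-scaled, prior count of 2) between DOX and PBS within each batch, for each gene; batch 1 has 1 PBS and 2 DOX libraries and batch 2 has 2 PBS and 3 DOX libraries. Ptgs2 is above 0 in both (0.78 and 1.70), while Ptgs1, Ptges, Ptges2 and Ptger4 have opposite signs in the batches.

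Set side by side per length, in TPM from exon lengths, the genes fell into an abundant, an intermediate and a rare group. Means over the 8 libraries were 758 ± 87.0 TPM (SD) for Hpgd, 647 ± 76.0 for Ptgis and 163 ± 25.0 for Ptges3. The intermediate genes were Ptgs1 with 16.3 ± 4.10 TPM and Ptges2 with 11.1 ± 1.76. The rare genes were Ptges with 1.06 ± 1.34, Ptgs2 with 0.985 ± 0.643, Ptger4 with 0.733 ± 0.326 and Hpgds with 0.290 ± 0.539 TPM. By mean TPM, Hpgd and Ptgis stood at percentiles 99.5 and 99.4 of all genes with a length, and Hpgds at 21.1. Neighbours in this order overlapped between Hpgd and Ptgis, between Ptgs1 and Ptges2, and among the 4 rare genes. Hpgd exceeded Ptgis in 7 of 8 libraries, and Ptges exceeded Ptgs2 in 3 of 8. The lowest Ptgis library was above the highest Ptges3 library, the lowest Ptges3 above the highest Ptgs1, and the lowest Ptges2 above the highest Ptges.

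**Figure D4:**
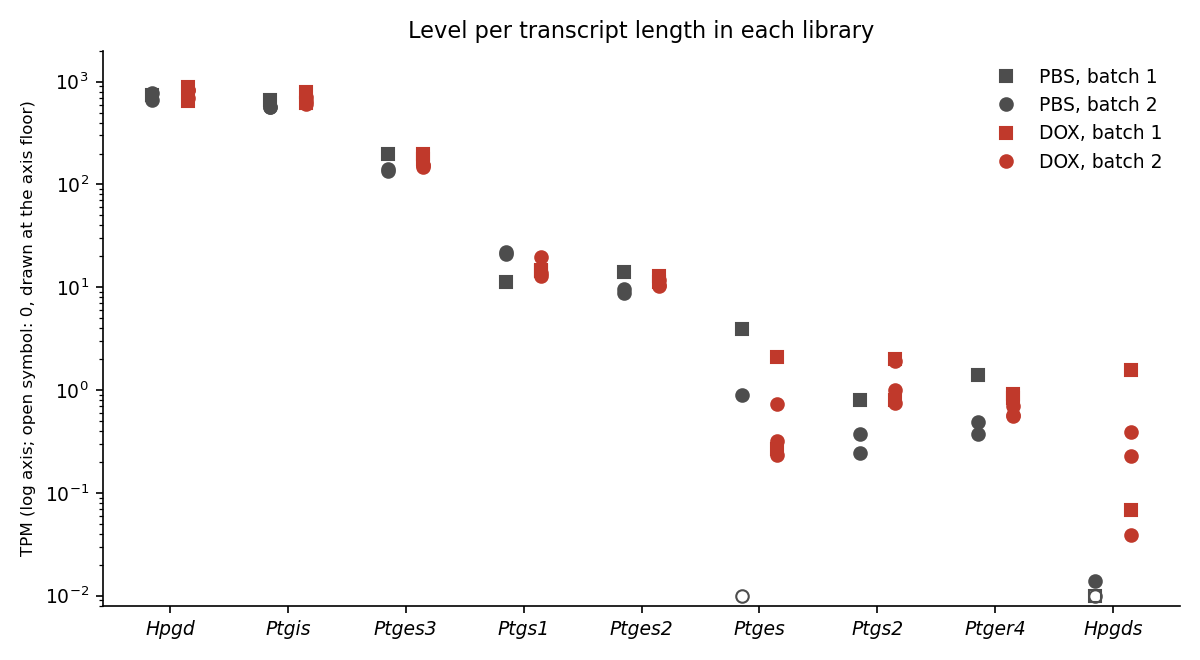
TPM of the 9 genes on a log axis, ordered by the mean over 8 libraries, with a point per library; open symbols at the floor of the axis are values of 0. Hpgd and Ptgis lie from 568 to 881 TPM, and Ptges, Ptgs2, Ptger4 and Hpgds lie mostly below 2 TPM.

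The batch contrast was not used to choose the genes and could be tested. None of the 9 genes passed it, with edgeR's quasi-likelihood test adjusted over all genes, where 14 of 15373 genes (0.0911%) did. At an unadjusted p under 0.05 it called 1 of the 9, Ptgs1, beside 2246 of all genes (14.6%). Ptgs1 was higher in batch 2, with a log2 difference of 0.61 ± 0.23 (SE, adjusted p = 0.290). Its difference was 0.25 without PBS replicate 1. Ptges had a value of -1.92 ± 1.00 (adjusted p = 0.402), Ptger4 -0.72 ± 0.38 (adjusted p = 0.410) and Hpgd 0.26 ± 0.14 (adjusted p = 0.415). The other 5 genes had adjusted p-values from 0.525 to 0.830. For the difference of the DOX effect between batches, edgeR's test called 0 of the 15373 genes (0%), with 1806 (11.7%) at an unadjusted p under 0.05, and it is not read for the genes of the set, since it is built from the contrast that chose them.

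For the rest of the pathway, 66 genes were listed in 6 groups by role, of which 57 had rows and 39 were tested. None of the 39 was called between DOX and PBS by edgeR, where 0 of all 15373 genes (0%) were called, and 3 had an unadjusted p under 0.05, beside 571 of all genes (3.71%). Those were Plaat3, Per1 and Rgs2, which is named here after its values were seen. DESeq2, which tested all 57 with rows, also called none of them, with 5 at an unadjusted p under 0.05. Over the 21139 genes it tested, DESeq2 called 26 (0.123%), with 902 (4.27%) at an unadjusted p under 0.05. By sign, 29 of the 39 were higher and 10 lower in DOX, with a median log2 difference of 0.10. Over all genes tested 53% were higher, with a median of 0.02. For the 9 genes of the set the fitted value was above 0 in 7 and below in 2, with a median of 0.06.

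Arachidonate release, the step that feeds the cyclooxygenases, had 11 tested genes of 19, with 6 higher and 5 lower in DOX and a median log2 difference of 0.00. Plaat3, a phospholipase, held 5.97, 3.14 and 2.61 CPM in PBS and 6.57, 6.25, 3.91, 5.57 and 6.95 in DOX. It overlapped through PBS replicate 1, and its log2 difference was 0.61 ± 0.27 (SE, edgeR adjusted p = 0.995). Anxa1, which encodes an inhibitor of phospholipase action, held 427 CPM in PBS replicate 1 and 43.3 to 129 in the other 7 libraries. Its log2 difference was -0.29 ± 0.53 (SE), and 0.92 without PBS replicate 1. Other prostanoid synthases had 5 tested genes of 7, with all 5 higher by sign and a median of 0.13. Among them Akr1b3, an aldose reductase with prostaglandin F synthase activity, had a log2 difference of 0.13 ± 0.11 (SE), and Cbr1, a carbonyl reductase that acts on prostaglandins, 0.32 ± 0.18 (SE).

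Of the other prostanoid receptor genes, 2 of 9 were tested, Ptgfr for prostaglandin F and Ptgfrn, a binding partner that dampens it, with log2 differences of 0.09 ± 0.54 and 0.02 ± 0.26 (SE). Without PBS replicate 1 these were 0.83 and -0.38. Ptger1, Ptger2, Ptgir, Tbxa2r and Ptgdr2 had rows with counts too low to be tested. In transport and breakdown, 5 of 7 were tested, 4 higher and 1 lower, with a median of 0.04. Cbr3, a carbonyl reductase, held 5.22, 4.99 and 4.79 CPM in PBS and 8.27, 5.26, 5.61, 6.21 and 5.84 in DOX. The DOX values were all above the PBS values by a narrow margin, and the log2 difference was 0.31 ± 0.21 (SE, edgeR adjusted p = 0.995). It was 0.19 without DOX replicate 1 and 0.05 with that library moved to PBS. Zadh2, which reduces a prostaglandin metabolite, had a log2 difference of 0.02 ± 0.12 (SE).

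The lipoxygenase branch, which makes leukotrienes from the same arachidonic acid, had 6 tested genes of 13, with 5 higher and 1 lower and a median of 0.22. Lta4h, which makes leukotriene B4, had a log2 difference of 0.08 ± 0.11 (SE), and Cysltr2, a leukotriene receptor, 0.34 ± 0.24 (SE). Genes known to respond to cAMP, the messenger downstream of EP4, had 10 tested of 11, with 7 higher and 3 lower and a median of 0.17. Per1, a clock gene with cAMP response elements, held 7.66, 10.7 and 8.61 CPM in PBS and 14.5, 12.6, 11.6, 9.82 and 15.04 in DOX. DOX replicate 4 lay below PBS replicate 2, and the log2 difference was 0.50 ± 0.20 (SE, edgeR adjusted p = 0.995). Rgs2, a regulator of G-protein signalling, had a log2 difference of 0.41 ± 0.18 (SE). Nr4a2, a nuclear receptor, had a log2 difference of -0.13 ± 0.20 (SE).

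Between batches 1 of the 39 pathway genes passed. Nr4a1, an immediate early nuclear receptor, held 39.2, 50.7 and 42.8 CPM in batch 1 and 18.7, 14.5, 23.1, 16.3 and 22.6 in batch 2. The batches did not overlap, and the log2 difference of batch 2 and batch 1 was -1.20 ± 0.15 (SE, edgeR adjusted p = 0.0334). The call held in 9 of 17 alternative fits and was lost without any of PBS replicates 1 (adjusted p = 0.206), 2 (0.0990) and 3 (0.0737) and DOX replicates 1 (0.0798), 3 (0.0766) and 5 (0.0561). It was also lost with a term for replicate number, and when DOX replicate 1 was moved to PBS, at an adjusted p of 0.0571. Ptgfrn passed only without DOX replicate 2 (adjusted p = 0.0337), against 0.318 with all libraries.

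**Figure D5:**
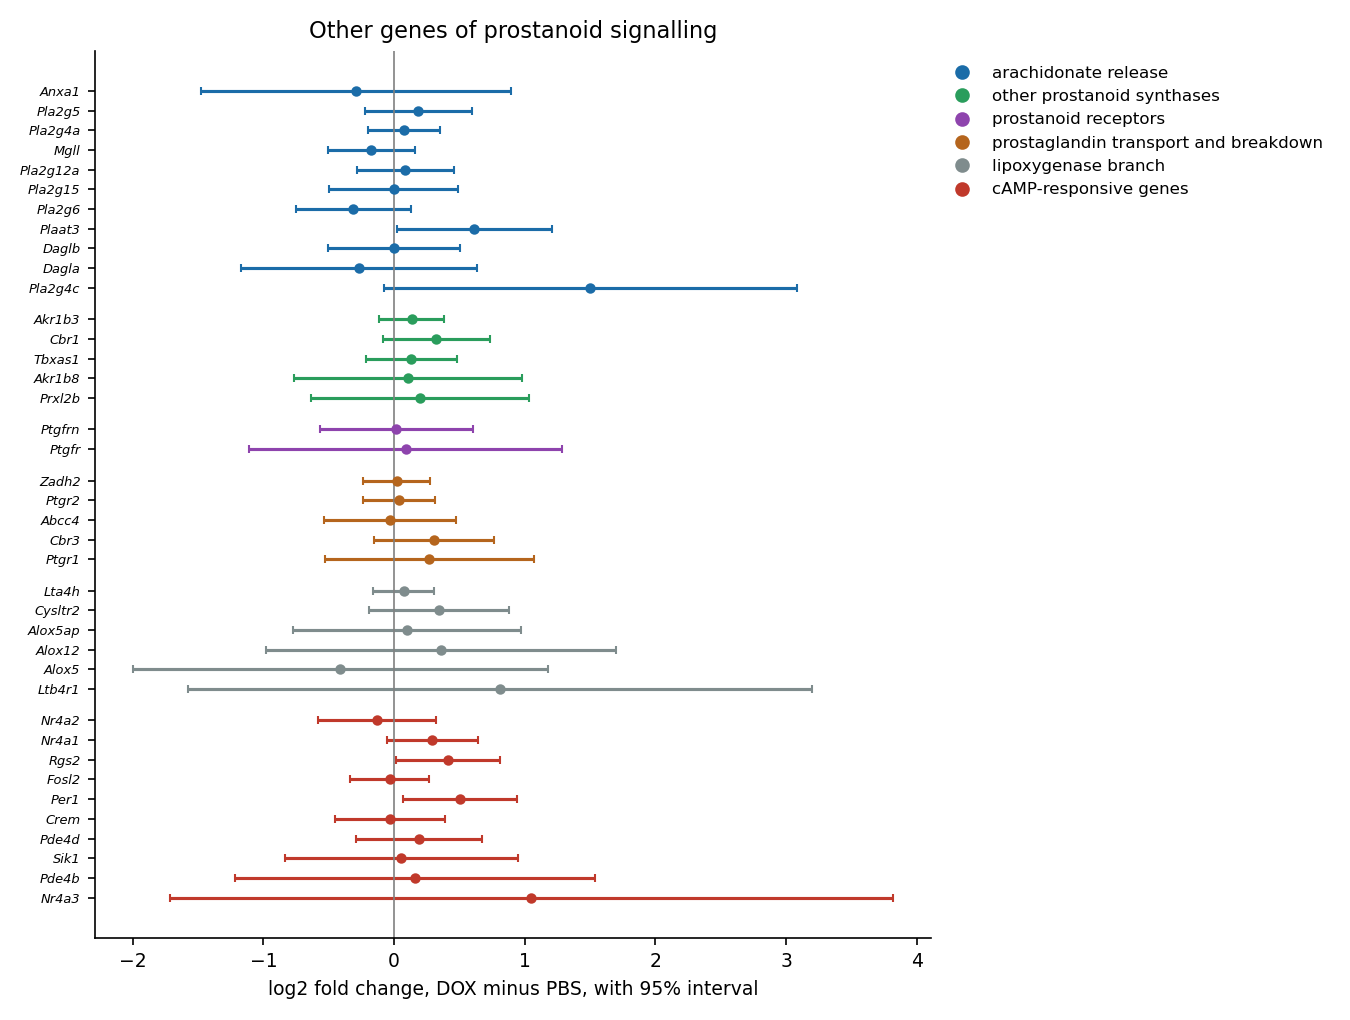
Fitted log2 differences of DOX and PBS for the tested pathway genes, grouped by role, with a point per gene and its 95% interval, colored by role. The medians of the groups lie between 0.00 for arachidonate release and 0.22 for the lipoxygenase branch.

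For each member with a mean log2 CPM of at least 1, the genes whose log2 CPM followed it most closely are given. They are a description over the 8 libraries with no test, among 10213 candidates. The 8 libraries share group, batch and composition, and many candidates reached high values: 34 exceeded a Pearson r of 0.9 for Ptges3, 27 for Hpgd, 25 for Ptgs1, 8 for Ptgis and 4 for Ptges2. Ptgs1 was closest to Slc22a18, with r = 0.94, then Apcdd1 and Usp34. Ptges2 was closest to Uchl5, with r = 0.92, then Cebpa and Abt1. Ptges3 was closest to Arrb1, with r = 0.97, then Coq10b and Sphk1. Ptgis was closest to Tysnd1, with r = 0.94. Hpgd was closest to Ggact, with r = 0.97, then Isy1 and Tmem205. No member was among the nearest genes of another.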

How the data were processed

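The authors deposited raw read counts per gene symbol, 1 column per library. They were made on GRCm39 with featureCounts 2.0.1 and STAR 2.7.9a among the tools listed, beside Trim Galore 0.6.6 and SAMtools 1.17, per the submitters' processing notes. Not given in the sources used here are the annotation, the strand setting and the treatment of multimapped reads. Per the labels' protocols the kit was SMART-Seq v4 Plus, which does not mark strand, so reads of antisense partners cannot be told apart. The smallest gene total was 10.

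Counts were analysed with edgeR 4.0.16 in R 4.3.3 (filterByExpr, TMM, model of batch and group, quasi-likelihood test, two-sided, Benjamini-Hochberg over all 15373 genes, threshold 0.05). Batch by group was tested by an added term. DESeq2 1.42.0, limma 3.58.1 voom, other scalings, filters and models, and leaving out each library were alternatives. The code was tested on simulated data. TPM used GENCODE M21 (GRCm38) exon lengths, matched by symbol for 20464 of 21154 genes. The genes and lists were chosen with earlier results of these data known. Every member was named, and per pathway list any gene past the threshold, the most abundant gene and the gene with the smallest p.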

Additional observations from a re-analysis of the deposited data

Results flagged for a closer look

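Among the 22 genes looked at one by one in the 5 DOX libraries, 4 had a single library far from the others by Dixon's criterion, which chance meets in about 1 group in 20. Hpgds held 2.55 CPM in DOX replicate 1, far above the next DOX library at 0.739. Ptges held 2.31 CPM in DOX replicate 2, where the next was 0.845. Ptgs1 held 22.6 CPM in DOX replicate 5, where the others lay from 14.4 to 15.9. Ptgfrn, the partner of the prostaglandin F receptor, held 8.33 CPM in DOX replicate 1, below the 12.7 to 13.9 of the others.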

How the results depend on the processing

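For the genes of the set, 153 of 165 alternative DOX values and 143 of 147 alternative batch values had the sign of the reported value. Hpgds was filtered out under the stricter filter (1 CPM in 3 libraries), without DOX replicates 1, 4 or 5, and with DOX replicate 1 counted as PBS. Ptgs2 ranged from 0.78 to 1.89, Ptgs1 from -0.57 to 0.51 and Ptges from -2.15 to 0.27; these ranges include batch 1 alone, which allows no test. Of the separate list of 66 pathway genes, none was called between DOX and PBS in any fit. Between DOX and PBS, edgeR called 0 genes and DESeq2 26. Hpgds was among the 26 and was called in no other fit; nothing is read from that, since the set was chosen on this contrast. Between batches edgeR called 14 genes, DESeq2 516, the fit with DOX replicate 1 counted as PBS 5, and leaving out a library 0 (PBS replicate 1) to 938 (DOX replicate 2). For the difference of the DOX effect between batches, DESeq2 called 269, and leaving out a library gave 0 to 58 (DOX replicate 2); it could not be estimated without PBS replicate 1. The same-numbered DOX library was the closest for PBS replicates 1 and 3 (r of deviations 0.25 and 0.24) and shared their batch. For PBS replicate 2 it was not (r = -0.05), and the closest was DOX replicate 3 (0.18). The main fit assumed no pairing. With a replicate block 0 genes were called between DOX and PBS and 0 between batches. Scaling moved the median of all genes from 0.02 to at most 0.04. The cause of these changes was not tested. Low counts of Hpgds, Ptgs2, Ptges and Ptger4 limit the precision of their values.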
